A study of Mus musculus with 8 samples.

Results

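Lysosomes are acidic organelles in which cathepsins and other hydrolases break down proteins, glycans and lipids, and retinal neurons, Müller glia and microglia all depend on them. A proton pump, the V-ATPase, acidifies the lumen, membrane proteins such as LAMP1 and LAMP2 protect the limiting membrane, and the transcription factor TFEB switches many of these genes on together through a short palindromic promoter element. In microglia, and in other antigen-presenting cells, cathepsin S also trims the invariant chain CD74 so that class II molecules can take up peptide.

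The 37 genes described here were taken by name as cathepsins, lysosomal hydrolases, their activators, lysosomal membrane proteins, acidification genes and Tfeb, provided that their level averaged 1 FPKM or more across the 8 libraries. FPKM is a count of sequenced fragments scaled to transcript length and library size, so levels can be set side by side between genes. All 37 were listed and all 37 met the condition, among 24860 genes listed and 12858 genes tested in all. They were compared between 4 mouse retina libraries labelled AAV2-shCX36, from an adeno-associated virus that carries a short hairpin RNA against connexin 36, and 4 labelled AAV2-scramble, which carry the same type of vector with a control hairpin. Every library carries a vector, so none shows untreated retina. The sources used here do not give strain, age, time after injection, any injury or the number of mice in a library. The p-values therefore speak of library-to-library spread, which may be technical.

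The labels name retinal ganglion cells, the output neurons of the retina, as the cell type. All 8 ganglion cell markers examined averaged at least 1 FPKM, with a summed level of 1356 to 2343 FPKM in AAV2-scramble and 2262 to 2436 in AAV2-shCX36. The 6 rod markers summed to 1158 to 1724 FPKM in AAV2-scramble and 748 to 1086 in AAV2-shCX36, and 13 microglia markers to 171 to 758 and 209.8 to 335, so transcripts of other retinal cells were present in every library. Of 8 markers of the retinal pigment epithelium, a lysosome-rich layer behind the retina, 5 stayed under 1 FPKM in every library, and their sum did not exceed 7.08 FPKM. Gjd2, which encodes connexin 36, had 38.7, 35.9, 17.4 and 18.2 FPKM in AAV2-scramble 1 to 4 and 17.0, 14.0, 14.6 and 16.6 in AAV2-shCX36 1 to 4 (27.5 ± 11.3 against 15.6 ± 1.48, SD, n = 4; limma adjusted p = 0.148). Controls 1 and 2 were far above all other libraries, and controls 3 and 4 lay just above the AAV2-shCX36 values. Libraries correlated with one another at 0.944 to 0.991 over the genes tested. AAV2-scramble 1 and 2 stood apart from the other controls in microglia, oligodendrocyte and vessel transcripts, which touches several results.

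Promoter sequence is shown for 5 of the genes because TFEB and interferon-regulated factors read short motifs there, and because these 5 stand for the kinds of behaviour described below. RefSeq promoters (GRCm38.p6) were matched for 33 of the 37 genes, with 39 start sites, and the 250 bases before each start were searched on both strands. Each run reads 5′ to 3′ toward the start site, and capitals mark every motif match.
Mcoln1 (chr8:3500269-3500518, plus strand): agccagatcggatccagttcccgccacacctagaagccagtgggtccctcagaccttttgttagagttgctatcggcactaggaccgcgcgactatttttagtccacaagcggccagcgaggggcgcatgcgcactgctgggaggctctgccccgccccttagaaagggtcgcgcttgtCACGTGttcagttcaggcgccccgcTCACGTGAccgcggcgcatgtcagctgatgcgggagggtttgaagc
Ctsd (chr7:142387828-142388077, minus strand): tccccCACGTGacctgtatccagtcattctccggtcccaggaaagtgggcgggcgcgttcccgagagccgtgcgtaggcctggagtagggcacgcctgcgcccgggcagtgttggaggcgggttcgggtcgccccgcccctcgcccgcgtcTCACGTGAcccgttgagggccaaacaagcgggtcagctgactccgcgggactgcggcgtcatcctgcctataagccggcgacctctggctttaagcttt
Atp6v1a (chr16:44139260-44139509, minus strand): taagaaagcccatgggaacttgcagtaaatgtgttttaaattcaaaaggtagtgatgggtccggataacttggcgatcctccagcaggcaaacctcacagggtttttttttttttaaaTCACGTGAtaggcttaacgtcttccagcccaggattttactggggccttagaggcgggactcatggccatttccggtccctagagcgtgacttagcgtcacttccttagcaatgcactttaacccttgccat
Gaa (chr11:119267713-119267962, plus strand): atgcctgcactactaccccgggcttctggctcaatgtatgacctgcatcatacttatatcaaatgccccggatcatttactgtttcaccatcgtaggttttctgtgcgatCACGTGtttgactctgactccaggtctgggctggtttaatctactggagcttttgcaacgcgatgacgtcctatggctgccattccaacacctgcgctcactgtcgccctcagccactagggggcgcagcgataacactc
Ctss (chr3:95526536-95526785, plus strand): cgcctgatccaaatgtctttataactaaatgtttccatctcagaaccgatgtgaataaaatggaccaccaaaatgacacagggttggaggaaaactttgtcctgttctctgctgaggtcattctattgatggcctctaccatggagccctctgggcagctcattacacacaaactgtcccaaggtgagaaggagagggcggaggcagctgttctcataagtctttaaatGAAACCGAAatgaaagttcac

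The capitals in Mcoln1, Ctsd and Atp6v1a include TCACGTGA, the type of element that TFEB binds, and those in Gaa mark its core alone, CACGTG, which lies inside the longer motif. The 8-base element was present in 6 of 39 promoters of lysosome genes (15.4%), those of Ctsa, Cln3, Ctsd, Mcoln1, Atp6v1a and Gla, against 0.785% of the 32851 promoters in the table. Its core was present in 13 of 39 (33.3%) against 6.02%. The element ends 38 bases before the start in Mcoln1, 91 bases in Ctsd and 124 bases in Atp6v1a. In Ctss the capitals mark GAAANNGAA, the repeat found in interferon response elements, 12 bases before the start. That repeat was present in 4 of 39 promoters (10.3%) against 7.13%, and TTCNNNGAA, the type of site that STAT factors bind, in 3 of 39 (7.69%) against 7.02%. These matches describe letters and show no binding.

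Lysosome genes made up 0.740% to 0.995% of all FPKM in AAV2-scramble libraries and 0.821% to 0.892% in AAV2-shCX36 libraries. Psap, which encodes the precursor of the saposins, had the highest mean over the 8 libraries at 574 FPKM. It was followed by the aspartic protease gene Ctsd at 313 FPKM and the cysteine protease genes Ctss and Ctsb at 145 FPKM each. Tfeb, at 1.15 FPKM, was the lowest. The median log2 difference of the 37 genes, computed from log2(FPKM + 1) with positive values for higher levels in AAV2-shCX36, was -0.03, beside 0.01 over all genes tested. Of the 37, 17 were higher and 20 lower, and 36 differed by less than 0.5 on that scale. These shares, 45.9% higher and 97.3% under 0.5, stand beside 52.4% and 93.6% of all genes tested.

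None of the 37 genes passed an adjusted p of 0.05 in limma with Benjamini-Hochberg adjustment over all genes, where 2.24% of genes passed as higher and 2.52% as lower. At an unadjusted p under 0.05 there were 5 higher genes among the 37, or 13.5%, beside 12.3% of all genes, and 1 lower gene, or 2.70%, beside 10.3%. In 5 genes every AAV2-shCX36 value lay above every control value (13.5%, against 8.85% of all genes), and in none did every value lie below (against 7.05%). These shares of higher genes were near those of all genes.

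**Figure D1:**
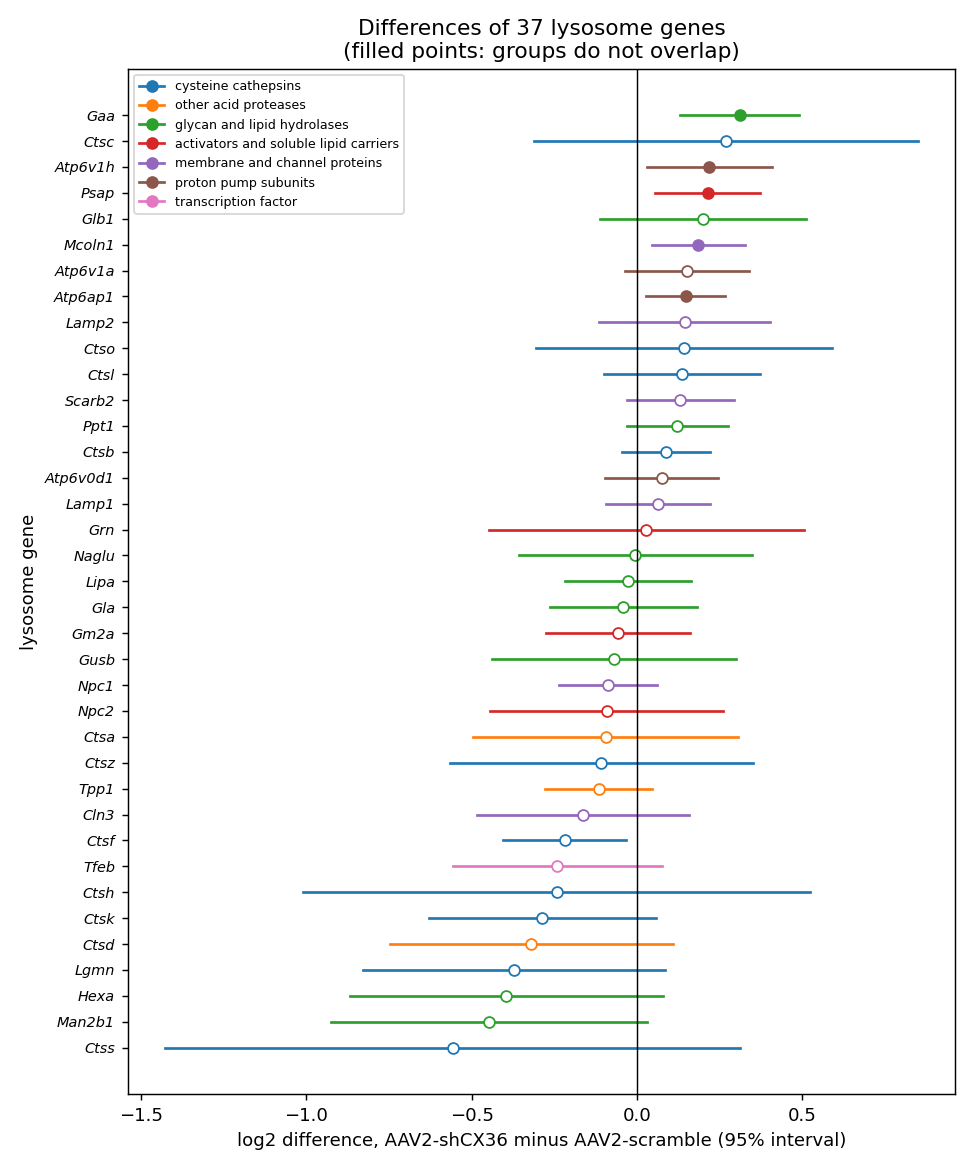
Log2 difference of each of the 37 lysosome genes from log2(FPKM + 1), positive where AAV2-shCX36 is higher (x axis), one gene per line, coloured by role. Points are limma estimates over n = 4 and 4 libraries, lines are 95% intervals without adjustment for the number of genes, and filled points mark the 5 genes whose groups do not overlap, Gaa, Psap, Mcoln1, Atp6ap1 and Atp6v1h, all to the right of 0.

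The 5 genes without overlap spanned several roles and differed by small amounts. Gaa encodes acid alpha-glucosidase, which degrades glycogen in the lysosome. It stood at 98.7, 82.7, 106 and 105 FPKM in AAV2-scramble libraries 1 to 4 and at 120.0, 123, 121 and 121 in AAV2-shCX36 libraries 1 to 4. The treated libraries lay within a narrow band above all controls, with AAV2-scramble 2 the lowest. The log2 difference was 0.31 ± 0.08 (SE; 95% interval 0.13 to 0.49; limma adjusted p = 0.0621). It passed without AAV2-scramble 2 (adjusted p = 0.0387) or without AAV2-scramble 4 (0.0419), and with single libraries left out the adjusted p reached 0.168.

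Psap had 573, 508, 528 and 519 FPKM in the controls and 622, 609, 599 and 636 in AAV2-shCX36. The saposins it yields help hydrolases reach sphingolipids. The nearest values of the groups were control 1 and AAV2-shCX36 library 3, and the log2 difference was 0.21 ± 0.07 (95% interval 0.06 to 0.37; limma adjusted p = 0.121). Mcoln1, the gene of the calcium-releasing lysosomal channel TRPML1, had 36.7, 37.3, 36.4 and 33.6 FPKM in the controls and 42.0, 44.1, 40.3 and 38.1 in AAV2-shCX36. Its lowest treated value, in library 4, was close to the highest control value, and the log2 difference was 0.19 ± 0.06 (95% interval 0.05 to 0.33; limma adjusted p = 0.127).

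All 4 proton pump genes were higher on average, and none passed in limma. Atp6ap1, an accessory subunit, had 88.7, 83.3, 83.9 and 88.9 FPKM in the controls and 98.7, 92.7, 92.7 and 98.5 in AAV2-shCX36, a log2 difference of 0.15 ± 0.05 (95% interval 0.03 to 0.27; adjusted p = 0.145). Atp6v1h, a subunit of the cytosolic sector, had 30.1, 26.0, 32.4 and 34.6 FPKM in the controls and 36.9, 35.1, 34.8 and 36.2 in AAV2-shCX36 (log2 0.22 ± 0.08, 95% interval 0.03 to 0.41, adjusted p = 0.166). In the latter the groups nearly touched, between control 4 and AAV2-shCX36 library 3. Atp6v1a, the catalytic subunit, averaged 118 ± 13.02 FPKM against 130.3 ± 4.54 (log2 0.15, 95% interval -0.03 to 0.34, adjusted p = 0.307). Atp6v0d1, of the membrane sector, averaged 133 ± 11.4 against 140.0 ± 7.87 FPKM (log2 0.07, adjusted p = 0.593), and the groups overlapped for both.

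Among the 10 cysteine cathepsin genes 4 were higher and 6 lower on average, and the gene with the largest negative difference of the 37, Ctss, was one of them. Ctss, cathepsin S, had 264, 248, 139.8 and 69.1 FPKM in AAV2-scramble libraries 1 to 4 and 99.0, 90.3, 102 and 146 in AAV2-shCX36. Controls 1 and 2 were the highest of the 8 libraries and control 4 the lowest, so every treated value lay inside the control range. The log2 difference was -0.56 ± 0.38 (95% interval -1.43 to 0.31; limma adjusted p = 0.422). It rested on single libraries, at -0.95 without AAV2-scramble 4 (adjusted p = 0.0447) and at -0.31 without AAV2-scramble 1 (0.695). Lgmn, the asparagine-specific protease legumain, had 162, 154, 111 and 81.9 FPKM in the controls and 94.2, 94.2, 81.7 and 111 in AAV2-shCX36 (log2 -0.37 ± 0.20, adjusted p = 0.309). The same libraries moved it, to -0.56 without AAV2-scramble 4 (adjusted p = 0.0482) and to -0.24 without AAV2-scramble 1 (0.546).

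Ctsf, cathepsin F, was the single gene lower at an unadjusted p under 0.05. It had 64.7, 61.2, 52.3 and 52.7 FPKM in the controls and 50.3, 45.8, 48.5 and 52.7 in AAV2-shCX36. The groups overlapped where AAV2-shCX36 library 4 met controls 3 and 4, and the log2 difference was -0.22 ± 0.08 (95% interval -0.41 to -0.03; limma adjusted p = 0.164). Ctsk, the collagen-degrading cathepsin K, was low throughout, at 1.81 ± 0.553 against 1.27 ± 0.141 FPKM (adjusted p = 0.299). Ctsh, an aminopeptidase, and Ctsz, a carboxypeptidase, averaged 15.8 ± 7.98 against 12.1 ± 2.93 and 66.3 ± 20.6 against 59.5 ± 6.81 FPKM. Cathepsins B and L, widely expressed endopeptidases, differed little, with Ctsb at 140.1 ± 7.23 against 149 ± 5.55 FPKM and Ctsl at 37.4 ± 4.64 against 41.2 ± 4.69. Ctsc, which activates granule proteases, had 2.55 ± 1.34 against 3.05 ± 0.427 FPKM, and Ctso 3.54 ± 1.29 against 3.89 ± 0.568. The adjusted p of these 6 genes lay between 0.409 and 0.792.

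The other acid proteases were lower on average and overlapped. Ctsd, cathepsin D, had 447, 422, 299 and 239.8 FPKM in the controls and 291, 266, 239 and 301 in AAV2-shCX36. Controls 1 and 2 exceeded all other libraries, and control 4 sat level with the lowest treated library (log2 -0.32 ± 0.19, 95% interval -0.75 to 0.11, limma adjusted p = 0.347). Ctsa, which shields beta-galactosidase and sialidase, averaged 28.6 ± 7.68 against 26.1 ± 3.49 FPKM, and the tripeptidyl peptidase gene Tpp1 36.97 ± 3.56 against 33.95 ± 1.04.

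Hexa and Man2b1 were the hydrolase genes with the largest negative differences. Hexa, the alpha subunit of beta-hexosaminidase, had 40.4, 41.2, 24.4 and 20.8 FPKM in the controls and 22.8, 20.2, 23.1 and 25.5 in AAV2-shCX36 (log2 -0.39 ± 0.21, limma adjusted p = 0.299). Man2b1, lysosomal alpha-mannosidase, had 23.2, 25.2, 18.4 and 11.4 FPKM in the controls and 13.4, 12.5, 12.6 and 15.8 in AAV2-shCX36 (log2 -0.45 ± 0.21, adjusted p = 0.250). Controls 1 and 2 lay above all treated libraries in both, control 4 lay below all of them for Man2b1 and among them for Hexa, and without control 4 Man2b1 passed, with a log2 difference of -0.67 and an adjusted p of 0.0204. The other single omissions left Man2b1 between -0.52 and -0.31, with an adjusted p of up to 0.441. Among the remaining hydrolases Glb1 (beta-galactosidase) and Ppt1 (palmitoyl-protein thioesterase) were higher on average, by 0.20 and 0.12. Gla, Gusb, Naglu and Lipa lay within 0.07 of 0, and the adjusted p of these 6 genes ranged from 0.314 to 0.991.

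Among soluble carriers and membrane proteins the differences were small. Grn, the gene of progranulin, which is cleaved to granulins in the lysosome, averaged 51.6 ± 16.6 against 50.8 ± 5.96 FPKM. The cholesterol-binding carrier gene Npc2 averaged 17.1 ± 4.09 against 15.8 ± 1.90 and the GM2 ganglioside activator gene Gm2a 9.21 ± 1.32 against 8.76 ± 0.413. Lamp1 and Lamp2 had log2 differences of 0.06 and 0.14, and Npc1, the membrane partner of NPC2, of -0.09. Scarb2, the receptor that carries glucocerebrosidase to the lysosome, averaged 70.7 ± 5.08 against 77.5 ± 5.001 FPKM (log2 0.13, limma adjusted p = 0.307). Cln3 averaged 6.28 ± 1.60 against 5.39 ± 0.150 FPKM (log2 -0.16, adjusted p = 0.529). Tfeb itself had 1.80, 1.56, 1.00 and 1.00 FPKM in the controls and 1.13, 0.959, 0.867 and 0.896 in AAV2-shCX36 (log2 -0.24, adjusted p = 0.339), a level at the limit of the filter.

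**Figure D2:**
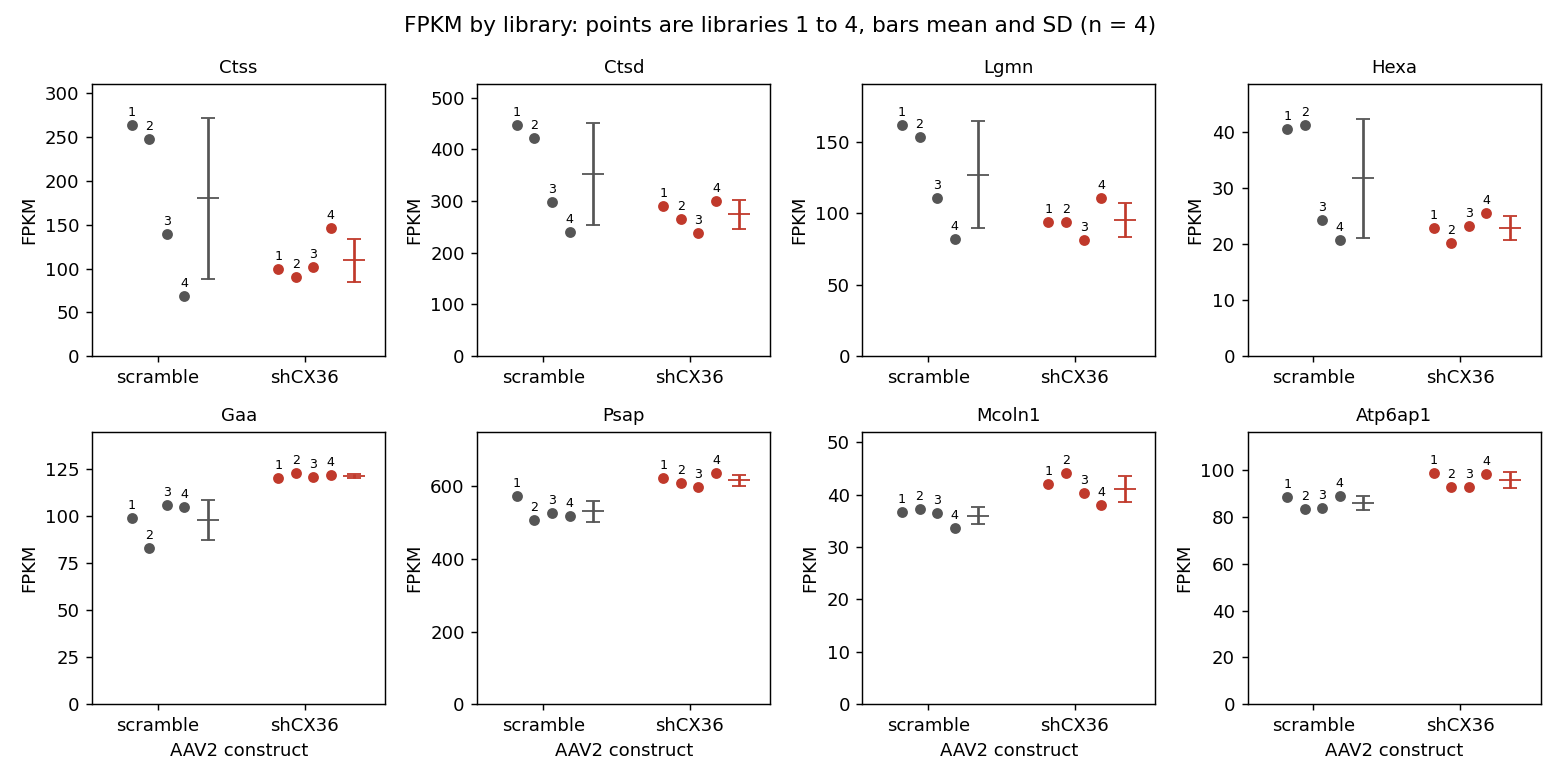
FPKM (y axes, from 0) of 8 lysosome genes in the 4 AAV2-scramble (grey) and 4 AAV2-shCX36 (red) libraries, with library numbers above the points and bars for mean and SD (n = 4). In the upper row, Ctss, Ctsd, Lgmn and Hexa, controls 1 and 2 lie above all other libraries; in the lower row, Gaa, Psap, Mcoln1 and Atp6ap1, the groups do not overlap.

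The controls differed more among themselves than the AAV2-shCX36 libraries did, and mostly in the same order. In 17 of 37 genes (45.9%) the highest control exceeded the lowest by more than 1.5-fold, beside 33.8% of all genes. In AAV2-shCX36 this was so for 3 of 37 (8.11%), beside 15.8% of all genes. Ctss had the widest control range of the 37, at 3.82-fold, followed by Ctsc at 3.72-fold and Ctsh at 3.18-fold. AAV2-scramble 1 and 2 were both above AAV2-scramble 3 and 4 in 25 of 37 genes (67.6%), beside 35.3% of all genes, and both below them in 3 (8.11%), beside 24.8%. These libraries were set apart after earlier results of the same data were seen, so the shares are descriptions. In 14 genes, Ctss, Ctsh, Ctsz and Grn among them, all AAV2-shCX36 values lay inside the control range. The share of all genes for which this held is not given here, so that count is not read as particular to lysosome genes.

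**Figure D3:**
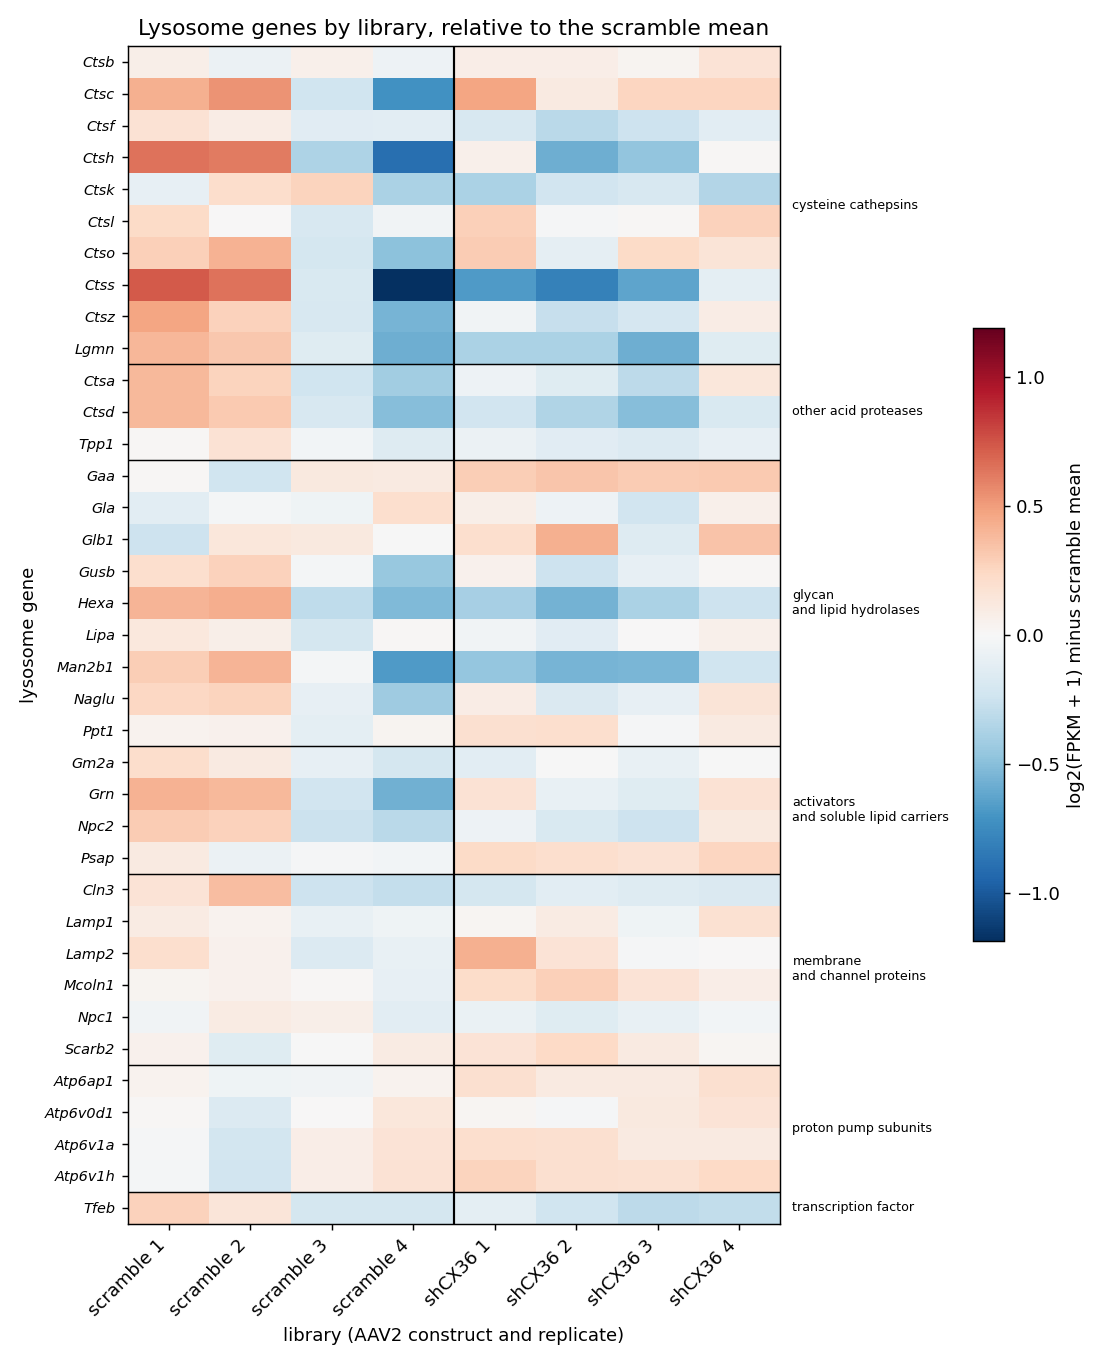
Level of the 37 lysosome genes (rows, grouped by role) in each of the 8 libraries (columns) as log2(FPKM + 1) minus the mean of the 4 AAV2-scramble libraries. AAV2-scramble 1 and 2 are red and AAV2-scramble 4 blue for most cathepsins and hydrolases, with Ctss spanning the widest range, while Gaa, Psap and Atp6v1h are pale red across the 4 AAV2-shCX36 libraries.

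What the comparison shows therefore depended on which controls were used. The controls were split after the levels were seen, so the calls and adjusted p below are descriptions, not tests. Without AAV2-scramble 1 and 2, 3 of the 36 genes tested were called higher in limma and none lower, beside 4.43% and 3.08% of all genes, with a median log2 difference of 0.13 beside 0.04 over all genes. The 3 were Gaa, Psap and Ctsc (log2 0.20, 0.24 and 0.75). Without AAV2-scramble 3 and 4, which leaves only the controls that stand apart, 3 of 37 were called higher and 13 lower, beside 11.9% and 14.8% of all genes, with a median of -0.21 beside -0.02. The 3 were Gaa, Atp6v1h and Atp6v1a (log2 0.42, 0.34 and 0.27), and the lower genes included Ctss (log2 -1.24, adjusted p = 0.00321), Ctsh (-0.87, 0.0127), Hexa (-0.81, 0.00168), Man2b1 (-0.80, 0.00235), Lgmn (-0.73, 0.00460) and Ctsd (-0.67, 0.00493). Gaa was higher in both, which any choice of controls had to give, since all its treated values lay above all controls. Ctss changed its sign between them, at 0.13 without AAV2-scramble 1 and 2 (adjusted p = 0.818).

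Microglia markers moved with the same libraries. The 13 markers summed to 758, 742, 393 and 171 FPKM in AAV2-scramble 1 to 4 and to 214, 209.8, 214 and 335 in AAV2-shCX36 1 to 4. All 13 were lower on average in AAV2-shCX36, and P2ry12 passed in limma. In mixed libraries, fewer cells of a type in the retina, fewer in the sample and less RNA per cell cannot be told apart. Oligodendrocyte markers summed to 57.3 and 183 FPKM in AAV2-scramble 1 and 2 and to between 10.7 and 12.1 in the other 6 libraries. Müller glia markers summed to 455 to 776 FPKM in the controls and 215 to 342 in AAV2-shCX36, with 5 of 8 called lower. Vessel markers summed to 110.7, 140.2, 41.9 and 26.8 FPKM in AAV2-scramble 1 to 4 and to 59.1 to 119 in AAV2-shCX36. Rod markers, with sums given above, had 4 of 6 called lower. Of the ganglion cell markers 7 of 8 were higher on average and none was called; their sum was lowest in AAV2-scramble 2, at 1356 FPKM, the library that was also lowest of the 8 for Gaa, Psap and the 4 proton pump genes. The part of these cell types in the levels of lysosome genes was not tested.

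Set against the summed microglia markers, a ratio chosen after the values were seen and given with no test, Ctss stood at 34.8, 33.4, 35.6 and 40.4 FPKM per 100 FPKM in the controls. In AAV2-shCX36 it stood at 46.2, 43.1, 47.9 and 43.6, so that the groups did not overlap. The mean ratio was higher in AAV2-shCX36 for all 37 genes, and for 97.2% of all genes tested, since the marker sum was lower there. Of the 37 genes, 3 (8.11%, beside 4.22% of all genes) had ratios that did not overlap, Ctss, Ctsc (0.512 ± 0.0665 against 1.31 ± 0.334) and Ctsh (3.25 ± 0.648 against 5.09 ± 1.27). Such a ratio moves with its denominator, so a change in the markers and a change in the cathepsin cannot be told apart.

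The rest of the pathway was described with 124 further genes in 7 lists, of which 123 were listed and 112 tested. In limma 5 of the 112 were called higher and 1 lower, beside 2.24% and 2.52% of all genes. One of the higher genes, Cst7, met the filter only through its AAV2-shCX36 values, so its call is not read as support. With median-of-ratios scaling, quantile normalization or rescaling to TPM, 5 were called higher and 2 lower, and the shares of all genes there are not given. Of the 5 higher genes, 4 were class II genes that depend on lysosomal proteases. Cd74, the invariant chain that cathepsin S trims, had 5.003, 9.75, 4.57 and 3.08 FPKM in the controls and 144, 48.8, 61.4 and 96.2 in AAV2-shCX36 (log2 3.72 ± 0.37, adjusted p = 0.00168). H2-Aa, H2-Ab1 and H2-Eb1, chains of the class II molecule, rose by 3.71, 3.09 and 3.11 on the log2 scale, and as members of a multigene family their single values are less certain. All 7 tested genes of this list were higher on average, whereas Ctss, which acts in the same pathway, was not. T and NK cell markers were all higher on average, at low levels, whereas monocyte-derived macrophage markers did not share a direction. The 6 T and NK cell markers found summed to 0.143 to 0.285 FPKM in the controls and 1.56 to 3.07 in AAV2-shCX36, and Cd3e, Cd3g, Cd3d, Nkg7 and Gzmb were listed at 0 in every control. Of 9 markers of monocyte-derived macrophages, whose sums overlapped at 37.4 to 63.4 and 35.6 to 56.0 FPKM, 4 were tested. Ly6c2 and Arg1, which met the filter only through AAV2-shCX36, were called higher (log2 1.88 and 3.47, limma adjusted p = 0.00188 and 3.76e-04) and Chil3 lower (-2.83, 5.18e-04). Lyz2 averaged 39.1 ± 12.4 against 30.4 ± 5.76 FPKM and was not called (limma adjusted p = 0.421). Among those not tested, Ccr2 and Ms4a7 were higher on average and Mrc1, Cd163 and F13a1 lower. Of these, Ccr2, Mrc1, Cd163 and F13a1 stayed under 1 FPKM in every library. The part of such immune cells in the class II levels was not tested.

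Cst7, which encodes cystatin F, an inhibitor of cathepsin C and other cysteine cathepsins inside lysosomes, was the fifth. It had 0.374, 0.820, 0.107 and 0 FPKM in the controls and 2.55, 1.32, 2.22 and 2.13 in AAV2-shCX36 (log2 1.23 ± 0.21, limma adjusted p = 0.0163). Its log2 difference depended on the pseudocount, at 1.71 with 0.5 and 2.77 with 0.1, and was 2.10 after rescaling to TPM. All treated libraries were above all controls, at a low level. The adjusted p was 0.0522 when AAV2-scramble 3 was left out and 0.0577 when AAV2-shCX36 3 was, and without AAV2-shCX36 1 the gene averaged under 1 FPKM and was not tested. Cst3, the secreted inhibitor cystatin C, had 798, 755, 500.3 and 334 FPKM in the controls and 240.3, 227, 266 and 349 in AAV2-shCX36, with an overlap between control 4 and AAV2-shCX36 library 4 (log2 -1.07 ± 0.27, adjusted p = 0.0572).

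Smpd1, acid sphingomyelinase, which turns sphingomyelin into ceramide, was the single gene called lower. It had 54.5, 56.8, 57.7 and 57.2 FPKM in the controls and 44.9, 43.1, 45.004 and 49.0 in AAV2-shCX36 (log2 -0.31 ± 0.06, limma adjusted p = 0.0190). The controls lay close together here, with AAV2-scramble 1 the lowest, unlike in Ctss or Hexa. The adjusted p was 0.0596 when AAV2-scramble 3 was left out, and 0.0705, 0.0682 and 0.0653 when AAV2-shCX36 1, 2 or 3 was.

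**Figure D4:**
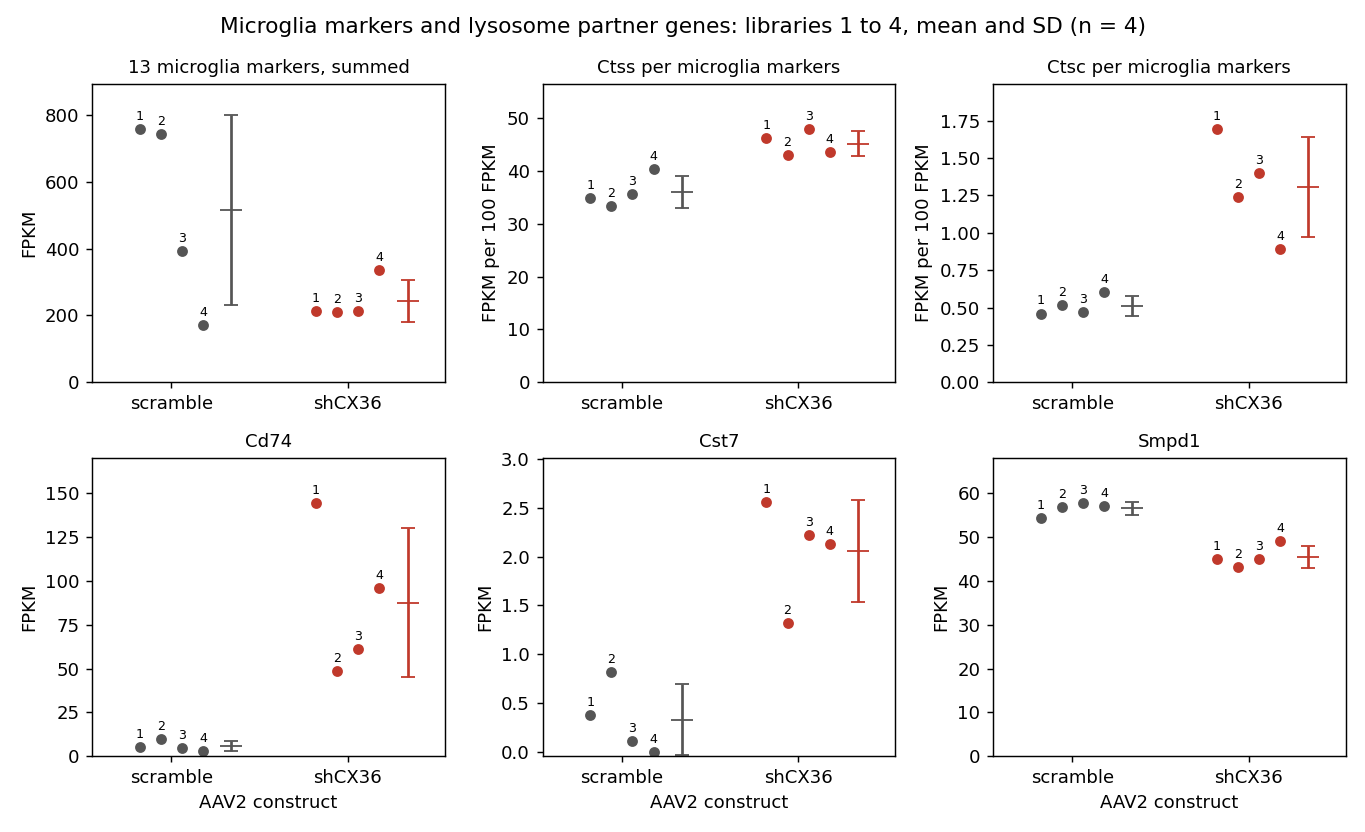
Upper row: summed FPKM of 13 microglia markers, and Ctss and Ctsc as FPKM per 100 FPKM of that sum; lower row: FPKM of Cd74, Cst7 and Smpd1. Grey points are AAV2-scramble and red points AAV2-shCX36 libraries 1 to 4, with bars for mean and SD (n = 4); Ctss and Ctsc per marker sum, Cd74 and Cst7 lie higher and Smpd1 lower in all 4 AAV2-shCX36 libraries.

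Of 14 other proton pump subunits tested, 10 were higher on average and none passed, with a median log2 difference of 0.14. Atp6v0a1, a membrane-sector subunit, had 115, 113, 116 and 125 FPKM in the controls and 134, 146, 131 and 132 in AAV2-shCX36 (log2 0.21, limma adjusted p = 0.0886), and Atp6v0c, the proteolipid ring subunit, averaged 139 ± 12.04 against 156 ± 1.12 FPKM (adjusted p = 0.197). The groups did not overlap in either gene. Atp6v1g2, which had the largest difference of the 14 and a smaller p than Atp6v0c, averaged 103.8 ± 17.6 against 127.5 ± 5.69 FPKM. Its groups overlapped (log2 0.31, limma adjusted p = 0.157). Of the 14, 2 were higher without overlap and 0 lower, beside 8.85% and 7.05% of all genes. Of 29 other hydrolases tested, 13 were higher and 16 lower on average, with Smpd1 as the single call. Of 22 other membrane proteins none passed. Laptm4b, of late endosomes and lysosomes, had 159, 157, 177 and 181 FPKM in the controls and 136, 125, 133 and 152 in AAV2-shCX36 (log2 -0.30, limma adjusted p = 0.0650). Clcn7, the lysosomal chloride-proton exchanger, had 24.97, 24.4, 22.5 and 21.5 FPKM in the controls and 26.6, 27.7, 28.6 and 27.1 in AAV2-shCX36 (log2 0.23, adjusted p = 0.0731). The groups did not overlap in either. Of the 22, 2 were higher and 2 lower without overlap, beside the same shares of all genes. Laptm5, of hematopoietic cells, had 77.4, 74.8, 44.0 and 21.5 FPKM in the controls and 18.9, 20.4, 18.7 and 27.6 in AAV2-shCX36 (log2 -1.16, adjusted p = 0.105), an order of controls like that of Ctss.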

How the data were processed

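RNA-seq was made from 8 mouse retina libraries as paired-end reads, per the labels' protocols. The authors deposited FPKM for 24860 gene symbols, and 0 value columns were unmatched. The submitters' processing notes name fastp, HISAT2, HTSeq, R 3.2.0 and DESeq2, with builds GRCm38 and mm10; strand setting and annotation are not given in the sources used here, and the exons of 13 of the 37 genes overlap another gene in GENCODE vM21. Of the low values of single-exon genes, 7.8% in AAV2-scramble 4 to 34.1% in AAV2-shCX36 1 were whole multiples of 1 fragment (within 0.05). Reads were therefore not recovered, the depth is unknown and no counting interval is given.

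Groups and numbers came from the titles. limma 3.58.1 (R 4.3.3, lmFit, eBayes with trend) took log2(FPKM + 1) of the 12858 genes whose level averaged 1 FPKM or more. Benjamini-Hochberg adjustment ran over all of them. The procedure was tested on simulated data with independent noise for each gene. That simulation held no library differences shared between genes, so it cannot show how the calls behave with controls that stand apart. The call threshold was 0.05. Genes and lists were chosen with earlier results of these data known. The rule for named genes was full statistics for the 12 smallest p and values for the 5 most abundant genes, Tfeb and Mcoln1. From each wider list it named the called genes and at most the 3 smallest p. Some of the 12, such as Ctsk and Scarb2, are given without a standard error or interval. Ctss and Ctsd, outside the 12, are given with both. A marker gene is not reported here. Figures used Python 3.11.15 and matplotlib 3.10.9.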

Additional observations from a re-analysis of the deposited data

Results flagged for a closer look

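Ppt1, palmitoyl-protein thioesterase, had 37.5 FPKM in AAV2-scramble 3, where the next control was at 41.6 FPKM, so this library stood apart from the others of its group. It was the single value so placed among 86 tests (43 genes in each group), and chance alone marks about 1 in 20 groups. The 37 genes and the 6 called partner genes were examined.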

How the results depend on the processing

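The depth behind each value was not recovered, so small differences of low genes such as Tfeb are limited by an unknown counting error. Of 22 alternatives, 11 used all 8 libraries. Among the 37 genes none was called lower in those 11; 2 were called higher with quantile normalization (Gaa, adjusted p = 0.0307, and Psap, 0.0226), 1 after rescaling to TPM (Gaa, 0.0451) and 1 with library weights (Gaa, 0.0352) in limma. With single libraries left out, 0 to 1 was called higher and 0 to 3 lower, and the median log2 difference ran from -0.13 to 0.05. For these fits and those above, the share of all genes called is not given here. Their counts are therefore not read as results about lysosome genes. Without AAV2-scramble 1 and 2, 3 were called higher, 0 lower (all genes 4.43% and 3.08%), with a median of 0.13. The fit that left out AAV2-scramble 3 and 4 called 3 higher, 13 lower (all genes 11.9% and 14.8%), with a median of -0.21. Both splits followed from values already seen, so their calls are descriptions. The cause was not tested. Of the wider list, with 5 higher and 1 lower, 2 were lower with a filter of 5 FPKM, median-of-ratios scaling, quantile normalization or TPM, and 3 with library weights. With single libraries left out, 4 to 8 were called higher and 0 to 7 lower, again without the share of all genes. Without AAV2-scramble 1 and 2 12 were called higher, 2 lower; leaving out AAV2-scramble 3 and 4 gave 20 higher, 15 lower, and without AAV2-shCX36 1 and 4 there were 4 higher and 0 lower. In AAV2-shCX36 1 and 4 the 6 lens markers summed to 139.9 and 302 FPKM. They summed to 8.98 and 16.6 FPKM in AAV2-shCX36 2 and 3 and to 0.258 to 10.9 in the controls. Same-numbered libraries had correlations of their deviations of 0.128, -0.302, 0.226 and -0.269, so the numbers were not taken as pairs; with the replicate block 0 of the 37 genes and, of the wider list, 4 higher and 0 lower were called.

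Signs turned for 18 of the 37 genes. Without AAV2-scramble 1 and 2 the log2 differences were 0.10 (Cln3), 0.23 (Ctsa), 0.028 (Ctsd), 0.39 (Ctsh), 0.13 (Ctss), 0.26 (Ctsz), 0.10 (Gm2a), 0.17 (Gusb), 0.021 (Hexa), 0.069 (Lipa), 0.25 (Naglu) and 0.19 (Npc2). When AAV2-scramble 3 and 4 were left out they were -0.21 (Ctsc), -0.21 (Ctso), 0.034 (Gla), -0.37 (Grn, adjusted p = 0.0336) and -0.0084 (Lamp1), and when AAV2-shCX36 1 and 4 were left out -0.0018 (Ctsl) and -0.11 (Grn). Grn was at -0.026 with quantile normalization, and Naglu at 1.4e-04 there and at 0.0065 with TPM. With single libraries left out the ranges were -0.23 to 0.034 (Ctsa), -0.29 to 0.050 (Ctsz), -0.13 to 0.012 (Gm2a), -0.10 to 0.014 (Lipa), -0.14 to 0.085 (Naglu), -0.20 to 0.0077 (Npc2), -0.22 to 0.021 (Gusb), -0.16 to 0.17 (Grn), -0.020 to 0.28 (Ctso) and -0.081 to 0.025 (Gla).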

Other observations

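Regulators of lysosome number and of autophagy, the delivery of cell contents to the lysosome, did not share a direction. Of 27 tested genes in this list 14 were higher and 13 lower on average, and none was called in limma, with 5 higher and 6 lower at an unadjusted p under 0.05, beside 12.3% and 10.3% of all genes. Rragd, a GTPase that docks mTORC1 at the lysosome, had 24.7, 23.5, 24.4 and 28.7 FPKM in AAV2-scramble and 17.5, 19.2, 22.6 and 20.4 in AAV2-shCX36 (log2 -0.33, adjusted p = 0.0721). Wipi1, of the early autophagosome, had 8.10, 10.49, 10.6 and 9.40 FPKM against 7.29, 5.67, 7.95 and 7.25 (adjusted p = 0.0797), and Flcn, folliculin, 15.0, 16.9, 11.97 and 10.7 against 9.86, 9.29, 9.27 and 10.6 (adjusted p = 0.0961). In all 3, which had the smallest p of the list, the treated values lay below the controls without overlap. Over the 27 genes, 4 were lower and 1 higher without overlap, beside 7.05% and 8.85% of all genes.

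Enzyme sorting genes were higher on average in 6 of 9 cases, and none was called. M6pr, the receptor that carries hydrolases with mannose 6-phosphate to the lysosome, had 43.3, 34.99, 42.4 and 41.3 FPKM in AAV2-scramble and 48.9, 46.8, 46.6 and 49.6 in AAV2-shCX36, without overlap (log2 0.24, limma adjusted p = 0.0972). No other gene of the 9 was without overlap, and 8.85% of all genes were higher without it.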
